A study of Mus musculus with 3 samples.

Results

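The insulin-like growth factor (IGF) genes described here are 2 ligands, Igf1 and Igf2, 2 receptors, Igf1r and Igf2r, and 6 binding proteins, Igfbp2 to Igfbp7. They were taken by name, as every probe set whose platform gene symbol is one of these 10, with no filter on signal. The list of members was, however, chosen with earlier results of these data known. All 10 genes were found, with 28 of the 34945 probe sets that carry a single gene symbol, among 18193 genes in all. Expression was measured in sorted cells of C57BL/6 mice, taken from collagenase-treated fragments of femur and tibia and labelled endosteal, that is, from the inner surface of bone. Cells carrying CD45, CD31 or Ter119, which mark blood, endothelial and erythroid cells, had been removed from all of them. The remainder was sorted by 2 surface proteins, PDGFRa, a receptor for platelet-derived growth factor, and Sca-1, which is used to enrich mesenchymal progenitors, into PDGFRa(-) Sca-1(-), PDGFRa(+) Sca-1(-) and PDGFRa(+) Sca-1(+) cells. Each population was hybridised to 1 Affymetrix array, so no difference has a replicate check and no p-value was computed. The sources used here do not give the age, sex or number of the mice.

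IGF-I and IGF-II are secreted peptides that act mainly through the IGF-I receptor, a tyrosine kinase that passes the signal to the PI3K and AKT kinases. The IGF-II receptor carries no kinase and takes IGF-II into the cell for breakdown, and the binding proteins hold IGFs outside the cell, where proteases can release them. In bone, IGFs are made by the skeletal cells themselves and stored in the matrix, and growth hormone acts in part by raising Igf1.

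Values are probe set signals on a linear scale in arbitrary units, and they compare populations, not genes. Each gene took the probe set with its highest mean log2 signal. A floor at a signal of 93.2, the mean of the 3 array medians, stood in place of detection calls, and a ratio against a signal under the floor is a bound, written as "at least". Genes were called higher or lower at a ratio of 2-fold. The only repeated measurement was that by different probe sets of a gene, whose log2 ratios had an SD of 0.60 for PDGFRa(+) Sca-1(+) over PDGFRa(+) Sca-1(-), 0.37 for PDGFRa(+) Sca-1(-) over PDGFRa(-) Sca-1(-) and 0.50 for PDGFRa(+) Sca-1(+) over PDGFRa(-) Sca-1(-).

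The populations also differed in cell type markers. The summed signal of 10 chondrocyte markers was 188685 in PDGFRa(-) Sca-1(-), 223896 in PDGFRa(+) Sca-1(-) and 15931 in PDGFRa(+) Sca-1(+) cells, so cells labelled endosteal held much cartilage RNA where Sca-1 was absent. Of the 5 osteoblast markers measured, 4 were at least 2-fold lower in PDGFRa(+) Sca-1(+) than in PDGFRa(+) Sca-1(-) cells, from 14.0-fold for Sp7 to 44.3-fold for Alpl, while Col1a1 was within 2-fold. Their sums of 41690, 95532 and 16448 in the same order therefore understate this, since Col1a1 gave 14417 of the last. The 5 adventitial fibroblast markers, genes of the connective tissue sheath around vessels, summed to 696, 2863 and 60072, with 2, 3 and 5 of them above the floor. Of 6 markers of reticular stroma, the Cxcl12-rich support cells of marrow, 4 were higher in PDGFRa(+) Sca-1(+) than in PDGFRa(+) Sca-1(-) cells and Adipoq was lower. Their sums were 7640, 7254 and 30589, in which Foxc1, at 6447, 4470 and 2869, ran opposite to Cxcl12, at 435, 1385 and 21288. Ptprc, the gene for CD45, and Pecam1, the gene for CD31, were under the floor on all 3 arrays. So were the general blood markers Cd52 and Coro1a and the endothelial markers Cdh5 and Emcn. Some other blood and vessel markers were above the floor, among them the general blood marker Laptm5, at 231, 252 and 128. All 6 neutrophil markers were at least 2-fold higher in PDGFRa(+) Sca-1(-) than in PDGFRa(-) Sca-1(-) cells, with sums of 528, 2801 and 2398. The 4 erythroid markers summed to 7270, 2138 and 1264, mostly Tfrc. Of the other endothelial markers, Kdr was near the floor, at 67.1, 110 and 155. Tek, under the floor in both Sca-1-negative populations, reached 888 in PDGFRa(+) Sca-1(+) cells. The macrophage and osteoclast markers summed to 5756, 4964 and 11712, of which Ctsk gave 5077, 4145 and 10801. Acp5, at 164, 256 and 428, was 2.60-fold higher in PDGFRa(+) Sca-1(+) than in PDGFRa(-) Sca-1(-) cells. By the probe sets used, Csf1r, Adgre1 and Cd68 were within 2-fold throughout. Another Csf1r probe set had a log2 ratio of -1.20 for PDGFRa(+) Sca-1(+) over PDGFRa(+) Sca-1(-). The gate itself was read on Pdgfra, at 586, 2420 and 12846, and the gene for Sca-1 was not analysed here. The ratio of 3' to 5' control probe sets for Actb, a sign of RNA integrity and amplification, was 2.99, 2.63 and 4.65. For Gapdh the same ratio was 3.93, 3.54 and 4.73. The part of these differences in the results on IGF genes was not tested, and fewer expressing cells and less RNA per cell cannot be told apart in sorted pools.

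In PDGFRa(+) Sca-1(+) cells, Igf1 and 4 binding protein genes, Igfbp3, Igfbp4, Igfbp5 and Igfbp6, had their highest signals, 3.73-fold to 6.32-fold above PDGFRa(+) Sca-1(-) cells. By the probe sets used, neither receptor gene nor Igf2 differed by 2-fold between any pair of populations. Igfbp7 was also highest in PDGFRa(+) Sca-1(+) cells but lowest in PDGFRa(+) Sca-1(-) cells, and Igfbp2 was under the floor on every array.

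The promoters of the 5 genes that were highest together are shown with that of Igf2r, a member within 2-fold throughout, to set their sequences side by side. Each run is the 250 bases before the start site in RefSeq, build GRCm38.p6, read 5′ to 3′ in the direction of the gene. Igf1 lies at chr10:87860861-87861110 on the plus strand, Igfbp3 at chr11:7213924-7214173 on the minus strand, Igfbp4 at chr11:99040994-99041243 on the plus strand, Igfbp5 at chr1:72874866-72875115 on the minus strand, Igfbp6 at chr15:102143936-102144185 on the plus strand and Igf2r at chr17:12769707-12769956 on the minus strand. Capitals mark matches on either strand to 6 short motifs, some of which may overlap. The core of the TATA box was searched as TATAAA. A looser form of that box was searched as TATTTAA. The letters searched for the CCAAT box were those of its name. The GC box, bound by Sp1 and its relatives, was searched as GGGCGG. The E-box, bound by helix-loop-helix factors, was searched as CACGTG. The AP-1 site, bound by Fos and Jun, was searched as TGACTCA.
Igf1: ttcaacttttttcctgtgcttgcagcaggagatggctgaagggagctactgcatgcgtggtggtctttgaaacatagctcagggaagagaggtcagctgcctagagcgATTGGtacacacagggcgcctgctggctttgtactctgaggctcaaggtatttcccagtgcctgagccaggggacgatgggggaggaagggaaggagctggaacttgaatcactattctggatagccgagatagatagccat
Igfbp3: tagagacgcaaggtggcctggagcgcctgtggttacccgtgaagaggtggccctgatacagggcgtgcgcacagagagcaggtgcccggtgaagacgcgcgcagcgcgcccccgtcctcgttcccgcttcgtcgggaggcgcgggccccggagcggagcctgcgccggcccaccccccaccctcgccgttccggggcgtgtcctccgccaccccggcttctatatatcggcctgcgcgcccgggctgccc
Igfbp4: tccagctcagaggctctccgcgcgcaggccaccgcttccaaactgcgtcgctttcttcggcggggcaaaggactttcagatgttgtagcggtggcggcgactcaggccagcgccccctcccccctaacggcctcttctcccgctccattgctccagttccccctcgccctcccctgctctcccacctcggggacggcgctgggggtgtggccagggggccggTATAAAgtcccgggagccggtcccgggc
Igfbp5: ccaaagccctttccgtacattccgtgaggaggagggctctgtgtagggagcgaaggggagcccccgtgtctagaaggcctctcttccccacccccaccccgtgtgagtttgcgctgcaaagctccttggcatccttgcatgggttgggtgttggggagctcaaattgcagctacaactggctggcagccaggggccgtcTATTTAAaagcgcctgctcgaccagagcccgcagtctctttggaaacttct
Igfbp6: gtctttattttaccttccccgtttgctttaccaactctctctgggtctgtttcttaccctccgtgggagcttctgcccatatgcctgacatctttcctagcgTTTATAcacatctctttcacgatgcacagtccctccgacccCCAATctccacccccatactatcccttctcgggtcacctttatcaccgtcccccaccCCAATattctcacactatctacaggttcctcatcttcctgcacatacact
Igf2r: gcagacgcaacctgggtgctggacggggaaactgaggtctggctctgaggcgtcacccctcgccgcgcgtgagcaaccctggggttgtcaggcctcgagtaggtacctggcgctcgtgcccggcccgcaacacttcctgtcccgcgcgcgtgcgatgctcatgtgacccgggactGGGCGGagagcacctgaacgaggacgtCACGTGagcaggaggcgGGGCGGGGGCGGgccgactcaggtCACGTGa

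None of the 6 motifs was held by all 5 promoters. Matches were sought in windows that ran 50 bases further, past the start site. Igfbp4 held TATAAA 28 bases before the start, a core that 13.6% of all 32851 windows hold, and Igfbp5 held TATTTAA 51 bases before it, which 4.51% hold. Igfbp6 held TATAAA on the other strand and CCAAT at 2 places, and Igf1 held CCAAT on the other strand, a motif in 37.4% of windows. The Igfbp3 window held none of the 6 motifs as searched, though its run reads tatatat near the start site, a form that was not searched. The GC box, in 35.7% of all windows, was in none of these 5 windows and in at least 1 window of each of the other 5 members, Igf2, Igf1r, Igf2r, Igfbp2 and Igfbp7, of which Igf2 has 4 windows and Igfbp2 has 2. The GC content was 52.3% in Igf1, 71.7% in Igfbp3, 71.3% in Igfbp4, 56.3% in Igfbp5 and 49.7% in Igfbp6, against a median of 52.7% over all windows. Over the 9588 genes with a window that were compared between PDGFRa(+) Sca-1(+) and PDGFRa(+) Sca-1(-) cells, the median was 62.3%, by each gene's highest window. Of those genes, 69.0% held a GC box in at least 1 window, and 66.6% of those with 1 window only. The motifs were chosen with these sequences in view, and a match is no evidence of binding.

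Igf1, the ligand that growth hormone induces, had signals of 2268 in PDGFRa(-) Sca-1(-), 3206 in PDGFRa(+) Sca-1(-) and 20257 in PDGFRa(+) Sca-1(+) cells. The last stands apart from the first pair, 6.32-fold above PDGFRa(+) Sca-1(-) and 8.93-fold above PDGFRa(-) Sca-1(-) cells, while those differed by 1.41-fold. The other 3 Igf1 probe sets gave the same order, with signals of 542, 973 and 8075, of 1712, 2867 and 17907, and of 641, 881 and 4008. Their ratios of PDGFRa(+) Sca-1(+) over PDGFRa(+) Sca-1(-) were 8.30, 6.25 and 4.55, so the 4 probe sets spanned 4.55-fold to 8.30-fold.

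Igf2, the ligand of fetal growth and an imprinted gene, had signals of 1005, 949 and 1075 in the same order. The highest and the lowest differed by 1.13-fold, less than the scatter between probe sets. Its second probe set, at 21.5, 31.0 and 10.7, was under the floor on all 3 arrays, so the near-equal level rests on 1 probe set. The ligands thus had different patterns, one 8.93-fold and the other 1.07-fold higher in PDGFRa(+) Sca-1(+) than in PDGFRa(-) Sca-1(-) cells.

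**Figure D1:**
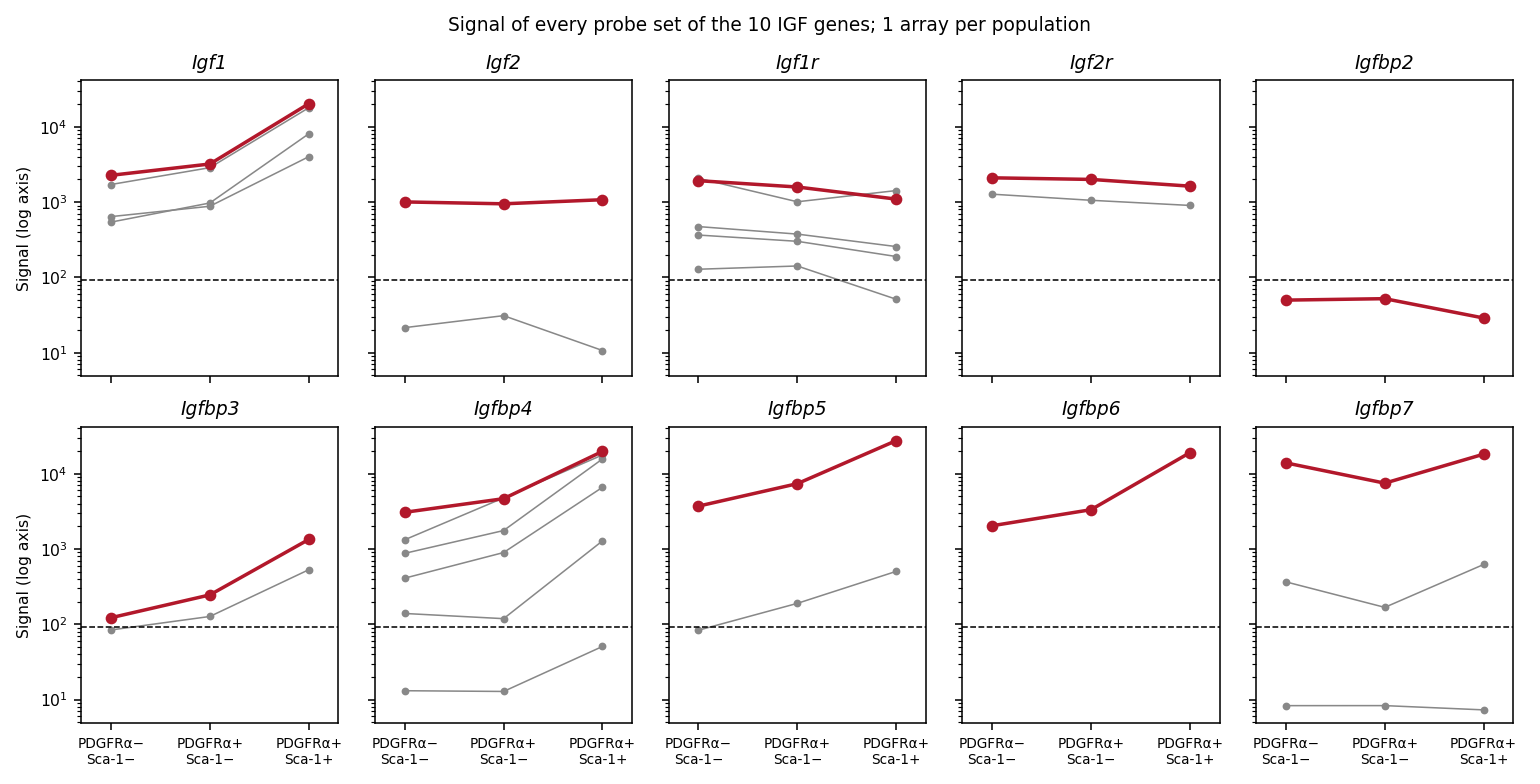
Signals of the 10 IGF genes on the 3 arrays, 1 panel per gene, with the population on the x axis and the signal in arbitrary units on a log y axis. Red lines join the probe set used for the gene, grey lines its other probe sets, and the dashed line is the floor at 93.2; the red lines of Igf1, Igfbp3, Igfbp4, Igfbp5 and Igfbp6 climb to the PDGFRa(+) Sca-1(+) array, that of Igfbp7 dips in the middle, and that of Igfbp2 stays under the floor.

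Igf1r, the signalling receptor, ran in the opposite order to its ligand, at 1925 in PDGFRa(-) Sca-1(-), 1587 in PDGFRa(+) Sca-1(-) and 1096 in PDGFRa(+) Sca-1(+) cells. The largest of its differences was 1.76-fold, within 2-fold. Of its other 4 probe sets, 2 kept that order, at 473, 376 and 257 and at 365, 301 and 189. Another, at 128, 142 and 51.2, was under the floor in PDGFRa(+) Sca-1(+) cells. The last, about as bright as the one used, read 2069, 1010 and 1423 and so was lowest in PDGFRa(+) Sca-1(-) cells, 2.05-fold under PDGFRa(-) Sca-1(-) cells. The probe sets for Igf1r therefore differed on which population of the last pair was lower.

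Igf2r, which clears IGF-II and carries lysosomal enzymes, was 2101, 2001 and 1629 in the same order, a 1.29-fold difference between highest and lowest. Its other probe set, at 1274, 1057 and 903, gave a 1.41-fold difference in the same order. A further probe set shared with Airn, the antisense RNA of the locus, was not used. By the probe sets used, both receptor genes were lowest in PDGFRa(+) Sca-1(+) cells, by less than 2-fold, and the bright Igf1r probe set at 2069, 1010 and 1423 did not share that order.

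Igfbp3, which carries most IGF in blood, had signals of 122 in PDGFRa(-) Sca-1(-), 245 in PDGFRa(+) Sca-1(-) and 1338 in PDGFRa(+) Sca-1(+) cells. It was 5.45-fold higher in PDGFRa(+) Sca-1(+) than in PDGFRa(+) Sca-1(-) cells and 2.01-fold higher in the latter than in PDGFRa(-) Sca-1(-) cells. The log2 ratio between the ends was 3.45, from a signal close to the floor, and with the floor at the 67th percentile it was 2.39. Its second probe set, at 84.0, 127 and 530, gave 4.17-fold for the first ratio. Against PDGFRa(-) Sca-1(-) cells, where it was under the floor, that probe set gave bounds of at least 1.36-fold for PDGFRa(+) Sca-1(-) and at least 5.69-fold for PDGFRa(+) Sca-1(+) cells.

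Igfbp4, a binding protein that holds back IGF action and is cut by the protease PAPP-A, had signals of 3069, 4655 and 19767. It was 4.25-fold higher in PDGFRa(+) Sca-1(+) than in PDGFRa(+) Sca-1(-) cells, and 1.52-fold higher in the latter than in PDGFRa(-) Sca-1(-) cells. Of its 6 probe sets, 5 were above the floor and highest in PDGFRa(+) Sca-1(+) cells, and 1 was under the floor on all 3 arrays. The 4 others above the floor read 1325, 4771 and 17733, then 875, 1757 and 15693, then 410, 897 and 6592, and last 139, 119 and 1281. Their ratios of PDGFRa(+) Sca-1(+) over PDGFRa(+) Sca-1(-) were 3.72, 8.93, 7.35 and 10.8, so the size was uncertain by a wide margin while the direction was shared. For PDGFRa(+) Sca-1(-) over PDGFRa(-) Sca-1(-) they were not of one direction, with log2 ratios from -0.23 to 1.85, and 3 of the 5 were past 2-fold although the probe set used was not. All 6 carry name suffixes that the array maker gives to probe sets that may match several transcripts or genes. Such suffixes are also on both Igfbp5 probe sets, the second of Igfbp3, the last listed of Igf1 and the only one of Igfbp2.

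Igfbp5, which binds to bone matrix and mineral, had signals of 3707, 7368 and 27497. The step to PDGFRa(+) Sca-1(+) cells was 3.73-fold and the step before it 1.99-fold, just under the 2-fold ratio. Its second probe set, at 83.4, 189 and 504, gave 2.66-fold for the first and at least 2.03-fold for the second, so this gene lies on the threshold in PDGFRa(+) Sca-1(-) over PDGFRa(-) Sca-1(-) cells. The signal of 27497 is not far below the brightest of that array, 42027, and saturation can compress ratios there.

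Igfbp6, which prefers IGF-II over IGF-I, was measured by 1 probe set, at 2035, 3325 and 19048. It was 5.73-fold higher in PDGFRa(+) Sca-1(+) than in PDGFRa(+) Sca-1(-) cells and 1.63-fold higher in the latter than in PDGFRa(-) Sca-1(-) cells. Its profile was close to that of Igf1, with 9.36-fold between the ends against 8.93-fold.

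Igfbp7, a relative with low affinity for IGFs that is found in vessel walls and matrix, had signals of 13919 in PDGFRa(-) Sca-1(-), 7483 in PDGFRa(+) Sca-1(-) and 18162 in PDGFRa(+) Sca-1(+) cells. It was 2.43-fold higher in PDGFRa(+) Sca-1(+) than in PDGFRa(+) Sca-1(-) cells, and 1.86-fold lower in the latter than in PDGFRa(-) Sca-1(-) cells. A second probe set, at 366, 168 and 623, gave 3.71-fold and 2.18-fold for the same comparisons, with the same directions. Its last probe set, from 7.29 to 8.31, was under the floor. By the probe sets used, Igfbp7 was the one binding protein above the floor that was lower in PDGFRa(+) Sca-1(-) than in PDGFRa(-) Sca-1(-) cells.

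Igfbp2, a binding protein found in serum and in many tissues, was at 49.9, 52.2 and 28.9 on its 1 probe set, under the floor on all 3 arrays, and has no ratio. It is the neighbour of Igfbp5 on chromosome 1. Igfbp1, neighbour of Igfbp3 on chromosome 11, was likewise under the floor, at 4.40, 17.2 and 1.30. In each of these 2 pairs of adjacent genes, the level was above the floor in 1 gene only.

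**Figure D2:**
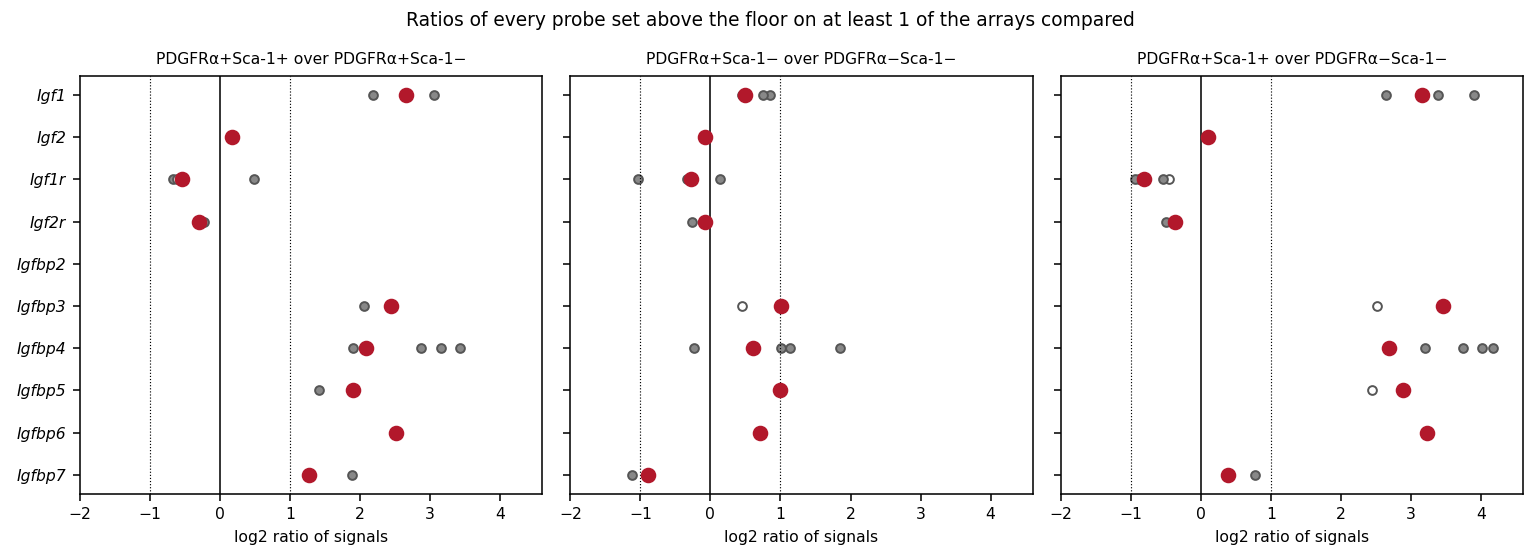
Log2 ratios of every IGF probe set that exceeded the floor on either array compared, 1 panel per comparison. Large red points are the probe set used for the gene, grey points the others, open points are bounds, and dotted lines mark 2-fold; in PDGFRa(+) Sca-1(+) over PDGFRa(+) Sca-1(-) every point for Igf1 and for Igfbp3 to Igfbp7 lies past 2-fold, and the Igf1r points lie on both sides of 0.

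Between PDGFRa(+) Sca-1(+) and PDGFRa(+) Sca-1(-) cells, which share the PDGFRa gate and differ by Sca-1, although Pdgfra was itself 5.31-fold higher in the former, 6 of the 9 members compared were at least 2-fold higher, Igf1 and Igfbp3 to Igfbp7, against 14.9% of the 11855 genes compared. None was 2-fold lower, against 11.3% of genes. All 9 were above the floor on all 3 arrays, so none entered the comparison through its high array alone. The median log2 ratio of the 9 was 1.90, beside 0.07 over all genes. Igf1 was above 97.7% of genes by this ratio, Igfbp6 above 97.3% and Igfbp3 above 97.1%, whereas Igf2 was above 55.7%, Igf2r above 30.9% and Igf1r above 21.6%. Igfbp4 was above 95.8%, Igfbp5 above 94.9% and Igfbp7 above 89.7%. So Igf1 and the 5 binding proteins with a ratio lay towards the upper end, Igf2 near the middle and the receptors below it.

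Between PDGFRa(+) Sca-1(-) and PDGFRa(-) Sca-1(-) cells, which differ by PDGFRa within the Sca-1-negative cells, 1 of 9 members, Igfbp3 at 2.01-fold, was at least 2-fold higher, against 4.82% of the 11675 genes compared. None was 2-fold lower, against 5.63% of genes. The count rests on Igfbp3 alone, which lay at the threshold and was a bound of at least 1.36-fold by its second probe set. Igfbp3 was above 95.2% of genes, Igfbp5 above 95.1%, Igfbp6 above 90.4% and Igfbp4 above 87.8%, while Igfbp7 was above 7.07%. The median log2 ratio was 0.50 beside -0.03 over all genes.

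Between PDGFRa(+) Sca-1(+) and PDGFRa(-) Sca-1(-) cells, which differ by both proteins, 5 of 9 members were at least 2-fold higher, against 14.5% of the 11843 genes compared, and none was 2-fold lower, against 12.2% of genes. These were Igf1 and Igfbp3 to Igfbp6, each above at least 97.4% of genes. The median log2 ratio was 2.69 beside 0.03 over all genes. Igfbp7, past 2-fold in the first comparison, was 1.30-fold higher here. The 3 comparisons share arrays, so their values are not independent of each other.

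**Figure D3:**
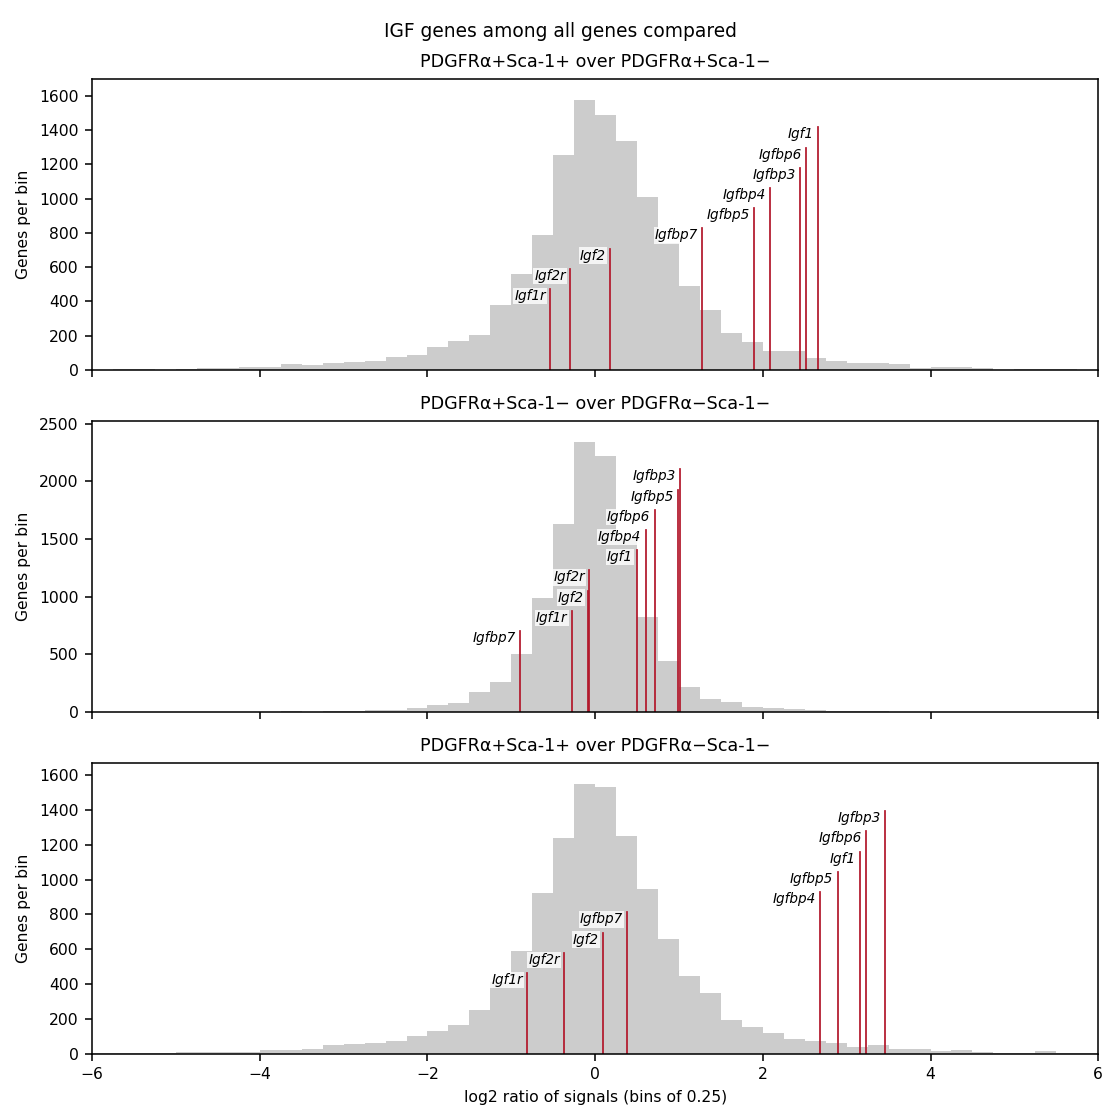
Log2 ratios of all genes compared, as grey counts in bins of 0.25 shown from -6 to 6, with the 9 IGF genes above the floor as red lines whose heights only separate their names. The top and bottom panels have the PDGFRa(+) Sca-1(+) array on top of the ratio. In them Igf1 and Igfbp3 to Igfbp6 stand in the right tail and the receptors lie below 0, within 2-fold. In the middle panel all 9 lie within about 2-fold, from Igfbp7 at a log2 ratio of -0.90 to Igfbp3 at 1.01.

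Sorted by the order of their signals, 5 members, Igf1 and Igfbp3 to Igfbp6, went from PDGFRa(-) Sca-1(-) through PDGFRa(+) Sca-1(-) to PDGFRa(+) Sca-1(+) cells, an order held by 20.6% of the 9752 genes above the floor on all 3 arrays and, with a range of at least 2-fold, by 8.64%. Igf2 and Igfbp7 were lowest in PDGFRa(+) Sca-1(-) and highest in PDGFRa(+) Sca-1(+) cells, as were 22.7% of genes. Igf1r and Igf2r had the reverse of the first order, as did 19.1% of genes. The neighbouring levels that differed by less than 2-fold were the lower pair for Igf1, Igfbp4, Igfbp5 and Igfbp6, and every pair for Igf2, Igf1r and Igf2r. For Igfbp7 both neighbouring pairs in the order differed by less than 2-fold.

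Likeness of pattern was measured as the distance between log2 signals centred over the 3 arrays, and with 3 points it describes these arrays only. The genes nearest to Igf1 were S100a4, a calcium-binding protein of fibroblasts, at a distance of 0.024, Pdgfrb, the other receptor for platelet-derived growth factor, at 0.051, and Ccn3, a matricellular protein, at 0.12. The signals of Pdgfrb were 914, 1352 and 8195, a small first step and a large second one like those of Igf1. The same 3 genes were nearest to Igfbp6, with Ccn3 at 0.039. Igfbp6 ranked 5 among the 9751 genes by nearness to Igf1, Igfbp3 ranked 43, Igfbp4 66 and Igfbp5 105, and 92 genes lay within 0.5 of Igf1.

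The nearest genes to Igfbp3 were Bmp4, a bone morphogenetic protein, at 0.077, Adamts12, a metalloprotease, at 0.084, and Arid5b, a chromatin-binding factor, at 0.091. Those to Igfbp4 were Dennd4c at 0.045, the homeobox gene Meis2 at 0.086 and Sema3a, an axon guidance protein, at 0.11. Those to Igfbp5 were Tmem106a at 0.044, Plekha2 at 0.10 and Zcchc24 at 0.10, and Igfbp4 ranked 21 for it, with Igf1 at 110. By nearness to Igfbp4, Igfbp5 ranked 48, Igfbp6 91, Igf1 107 and Igfbp3 182. The closest pair of members was Igf1 and Igfbp6, at 0.15, and the farthest of the 5 were Igf1 and Igfbp5, at 0.54.

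The rest of the pathway was read from 6 lists of 68 genes, of which 63 were on the array. Between PDGFRa(+) Sca-1(+) and PDGFRa(+) Sca-1(-) cells, 57 were compared, of which 6 were at least 2-fold higher and 15 at least 2-fold lower, against 14.9% and 11.3% of all genes. The other 36 did not reach that ratio, and the median over the 57 was a log2 ratio of -0.06. Between PDGFRa(+) Sca-1(-) and PDGFRa(-) Sca-1(-) cells 8 of 54 were higher and 6 lower, against 4.82% and 5.63% of all genes. Between the ends 9 of 56 were higher and 10 lower, against 14.5% and 12.2%. The medians over the listed genes were thus -0.06, 0.18 and 0.03 in the 3 comparisons, beside 0.07, -0.03 and 0.03 over all genes and 1.90, 0.50 and 2.69 over the members.

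In the growth hormone list, 1 of 7 genes compared was higher in PDGFRa(+) Sca-1(+) than in PDGFRa(+) Sca-1(-) cells, Stat5b, and 1 lower, Socs2, against 14.9% and 11.3% of all genes, so these counts are near the background. The second Stat5b probe set had a log2 ratio of -1.04, the opposite direction. Ghr, the growth hormone receptor, named after its values were seen, had signals of 2440, 5189 and 7149, a 2.13-fold first step and 2.93-fold between the ends. Over its 3 probe sets the log2 ratios ran from 0.30 to 1.28 for the first and from 0.17 to 1.55 for the second, so neither call was shared by all. By the probe sets used, the kinase Jak2 and the feedback gene Cish were within 2-fold in all comparisons. The other Jak2 probe set had a log2 ratio of -1.07 for PDGFRa(+) Sca-1(+) over PDGFRa(-) Sca-1(-). Igfals, whose product joins IGF and Igfbp3 in the circulating complex, was under the floor at 30.8, 73.5 and 83.8.

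Of the 11 IGFBP proteases and inhibitors compared, 3 were higher in PDGFRa(+) Sca-1(+) than in PDGFRa(+) Sca-1(-) cells, Pappa, Htra1 and Adam9, and 2 were lower, Stc2 and Adam12, against 14.9% and 11.3% of all genes. Stc2, an inhibitor of PAPP-A, had signals of 413, 1445 and 40.3, so it was at least 15.5-fold lower in PDGFRa(+) Sca-1(+) than in PDGFRa(+) Sca-1(-) cells. Pappa, the gene of that protease and also named after its values were seen, ran the other way, at 417, 177 and 470, 2.65-fold higher, with log2 ratios from 0.42 to 1.41 over its probe sets, not all past 2-fold. Adam12, a protease that cuts binding proteins, had 225, 941 and 455, 4.19-fold higher in PDGFRa(+) Sca-1(-) than in PDGFRa(-) Sca-1(-) cells but at a log2 ratio of 0.25, a bound, by its other probe set. Adamts1, another protease, had 2484, 6033 and 10921. Ctsd, a lysosomal protease, was 5375, 5588 and 5925, and Klk1, whose relatives are similar enough to share signal, was within 2-fold throughout.

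Close to the receptor, 1 of 11 genes was higher and 3 were lower in PDGFRa(+) Sca-1(+) than in PDGFRa(+) Sca-1(-) cells, against 14.9% and 11.3% of all genes. Grb14, an adaptor that restrains the insulin receptor, was 4055, 11482 and 440, 26.1-fold lower in PDGFRa(+) Sca-1(+) than in PDGFRa(+) Sca-1(-) cells, although its other probe set gave a bound at a log2 ratio of -0.37. Its relative Grb10 was 15482, 14089 and 10348, within 2-fold. Sh2b2, an adaptor, was 1024, 506 and 69.3, at least 5.43-fold lower, with -0.10 by its other probe set. Ptpn1, a phosphatase, was only just within 2-fold at 3618, 4415 and 2208. Its log2 ratio for PDGFRa(+) Sca-1(+) over PDGFRa(+) Sca-1(-) was -0.9996, and -0.07 by its other probe set.

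In the PI3K and AKT list, 1 of 17 genes was higher and 6 were lower in PDGFRa(+) Sca-1(+) than in PDGFRa(+) Sca-1(-) cells, against 14.9% and 11.3% of all genes. By the probe sets used, none of the 17 differed by 2-fold between the Sca-1-negative populations, where 4.82% of all genes were higher and 5.63% lower. Other probe sets did, with log2 ratios from -1.53 to 1.07 for Akt2, up to 1.97 for Gsk3b and down to -1.09 for Pik3ca. The median log2 ratio of the 17 was -0.75 in the first comparison and 0.18 in the second. Pik3r2, a regulatory subunit of PI3K, was 219, 202 and 844, 4.18-fold higher. The lower ones were Pik3cb, Pik3r1, Akt2, Gsk3b, Foxo1 and Foxo4. Of these, Akt2 and Gsk3b had probe sets in both directions, and Pik3r1 and Foxo1 had probe sets at log2 ratios of -0.62 and -0.50, short of 2-fold. Pik3cb, at 106, 187 and 45.0 on 1 probe set, was at least 2.00-fold lower, a bound at the threshold. Akt1 and Rheb, the latter at 13413, 13264 and 12718, were within 2-fold throughout.

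Among Igf2-related genes, Zim1, an imprinted gene, was 92.7, 382 and 62.0, at least 4.10-fold lower in PDGFRa(+) Sca-1(+) than in PDGFRa(+) Sca-1(-) cells, and Plagl1, an imprinted regulator of growth, was 24746, 27484 and 20620 but had a probe set at a log2 ratio of -1.83, while Igf2bp3 was within 2-fold. Of 8 FOXO target and feedback genes, none was higher and 2 were lower, Pdk4 and Trib3, against 14.9% and 11.3% of all genes. Pdk4, a kinase that limits glucose oxidation, was 346, 3104 and 400, a peak in PDGFRa(+) Sca-1(-) cells 7.76-fold above PDGFRa(+) Sca-1(+) cells. Trib3 was 763, 686 and 170, with a log2 ratio of -0.94 by its other probe set. By the probe sets used, Sesn1 and Bcl6 were within 2-fold throughout. Another Sesn1 probe set had a log2 ratio of 1.15 for PDGFRa(+) Sca-1(-) over PDGFRa(-) Sca-1(-).

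**Figure D4:**
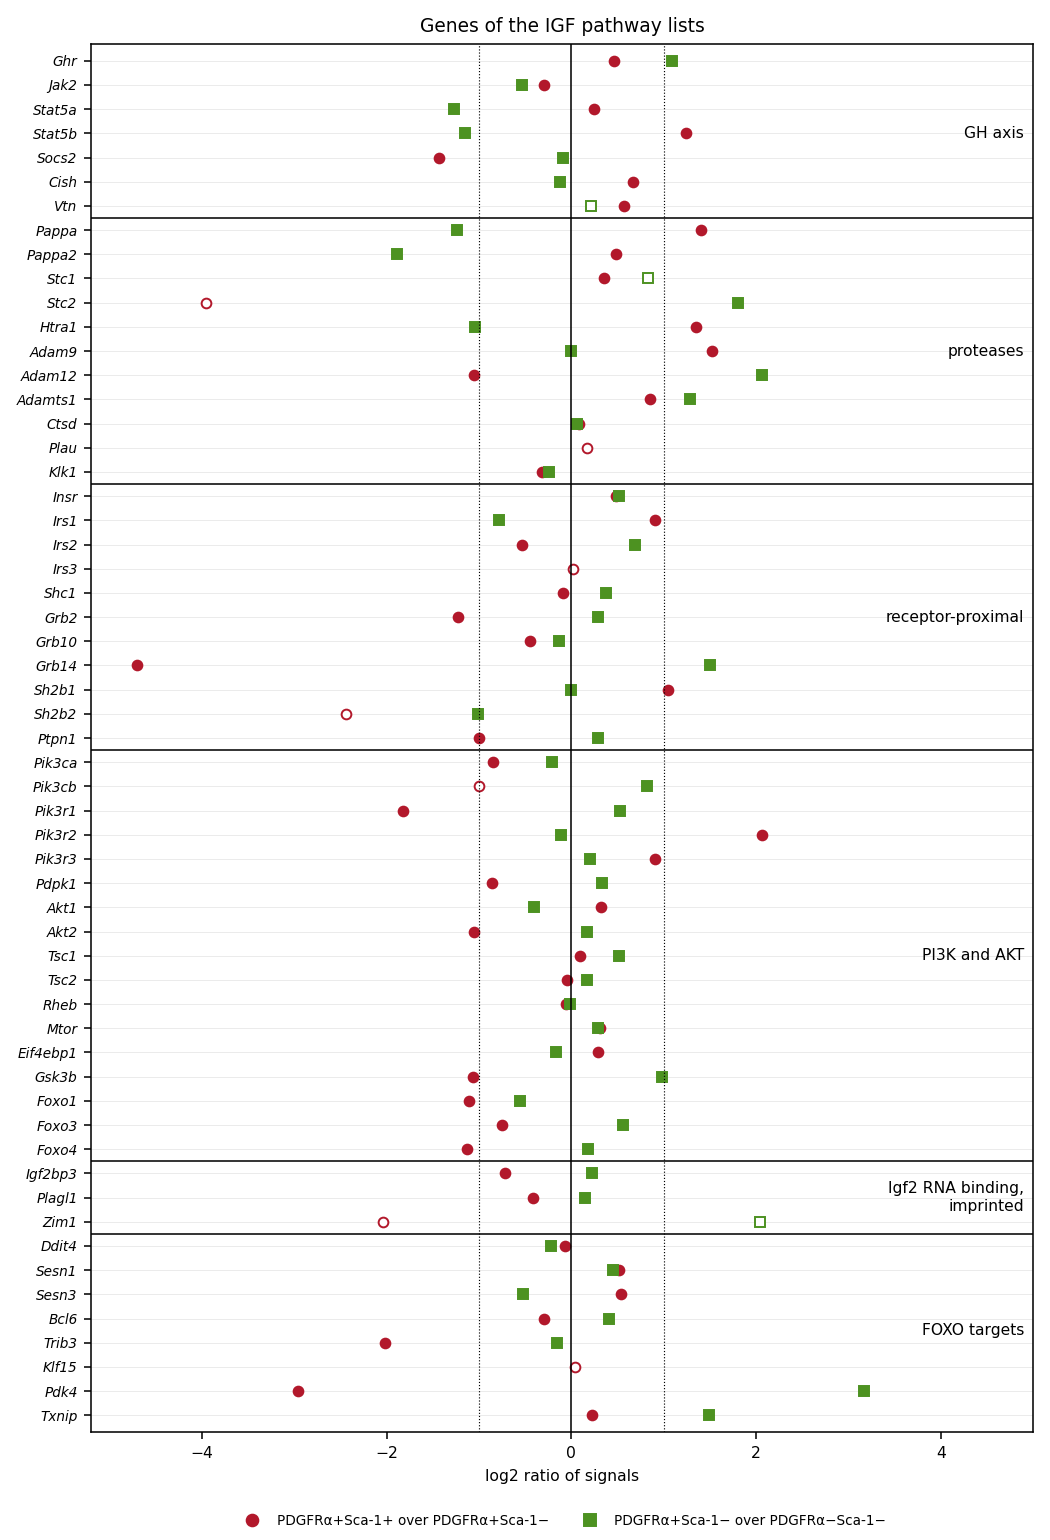
Log2 ratios of the genes of the 6 IGF pathway lists, by list. Red circles are PDGFRa(+) Sca-1(+) over PDGFRa(+) Sca-1(-), green squares PDGFRa(+) Sca-1(-) over PDGFRa(-) Sca-1(-), and open symbols bounds; most symbols lie between the lines at 2-fold, and Grb14 lies farthest to the left.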

How the data were processed

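Per the submitters' processing notes the deposited signal intensities were computed with MAS5, and per the labels' protocols the RNA was labelled with a two-cycle assay. The MAS5 version, the detection calls and any filter were not given in the sources used here. Each of the 3 arrays was scaled here to a common 2% trimmed mean over 45037 probe sets, after 64 controls were set aside. Names came from the platform annotation. Values below the floor were set to the floor and log2 ratios computed with Python 3.11.15, pandas 2.3.3 and numpy 2.4.6. The number of arrays, 1 per population, limits the precision, and no test was run. The counting was tested on simulated data with less scatter than that between probe sets here, and with changes only in genes well above the floor. That checks the counting code and not the precision of these arrays. All members were named, and from the pathway lists every gene at least 4-fold different between any 2 populations and up to 2 bright genes per list within 2-fold throughout. For members with a range of at least 4-fold, the 3 genes of nearest pattern were named. The members and lists were chosen with earlier results of these data known. Alternatives were the floor, the scaling, the fold threshold and the choice of probe set.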

Additional observations from a re-analysis of the deposited data

How the results depend on the processing

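No paired analysis was possible because each population has 1 array. The counts of 6 and 5 members at least 2-fold higher in PDGFRa(+) Sca-1(+) than in PDGFRa(+) Sca-1(-) and in PDGFRa(-) Sca-1(-) cells stayed within 1.5 times under all alternatives run, and at a 3-fold threshold the first was 5, without Igfbp7. The count of 1 for PDGFRa(+) Sca-1(-) over PDGFRa(-) Sca-1(-) cells did not hold. It was 0 with the floor at the 67th percentile and 0 at a 3-fold threshold, 2 with a common median of probe sets above the floor (Igfbp3 and Igfbp5), and 4 at a 1.5-fold threshold (Igfbp3 to Igfbp6). With the mean over probe sets it stayed 1 but was Igfbp5, at a log2 ratio of 1.01, in place of Igfbp3, at 0.73. At 1.5-fold, 1 member was lower in that comparison, Igfbp7, and 1 in PDGFRa(+) Sca-1(+) over PDGFRa(-) Sca-1(-) cells, Igf1r. Of 203 member ratios recomputed under the floor, scaling and probe set alternatives, 186 moved by less than the scatter between probe sets, 17 by more, and none reversed a called direction. Of those 17, 9 came among the 21 ratios with the highest and 7 among the 21 with the lowest of the other probe sets. The 27 ratios from the values as deposited could barely move, as those already shared a 2% trimmed mean near 500. The 27 with the floor at the 33rd percentile could not move, as the 9 members compared were above the main floor throughout. Igfbp2, under the floor, and Igfbp3, near it in PDGFRa(-) Sca-1(-) cells, are the members whose values signal over background limits most.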

Other observations

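The absence of the GC box, GGGCGG, from the promoter windows of Igf1 and Igfbp3 to Igfbp6 was set beside all genes. Of the 9588 genes compared between PDGFRa(+) Sca-1(+) and PDGFRa(+) Sca-1(-) cells that had a promoter window, 69.0% held it in at least 1 window. The share was 66.7% of the 1353 genes at least 2-fold higher, 71.9% of the 1070 lower and 69.1% of the 7165 within 2-fold. Among genes with 1 window only, it was 64.8%, 69.7% and 66.5%. The shares of the 3 classes lay close together, so lacking this motif was not a general feature of genes higher in PDGFRa(+) Sca-1(+) cells. This comparison was chosen after the members' sequences were seen.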
